A study of Mus musculus with 16 samples.

Results

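The 10 genes described here encode the NR4A family of orphan nuclear receptors (Nr4a1, Nr4a2 and Nr4a3), dual-specificity MAP kinase phosphatases (Dusp1, Dusp2, Dusp5 and Dusp6), immediate-early response proteins (Ier2 and Ier3) and the RNA-decay factor tristetraprolin (Zfp36). They are listed by name, as genes that signaling cascades switch on within minutes and many of which then damp the same cascades, and they were chosen with earlier results of these data known. They are 10 of 17128 genes in the table of plasmacytoid dendritic cells (pDCs) and 10 of 17721 genes in the table of conventional dendritic cells (cDCs), and all 10 passed the filter on low values in both tables, a mean of at least 1 TPM (transcripts of a gene per 1 M transcripts of the library, corrected for length). They were measured by RNA-seq in 16 libraries of dendritic cells sorted from the spleen of C57BL/6 mice aged 6 to 8 weeks. WT mice were Trim33 fl/fl. cKO mice were Trim33 fl/fl Itgax-Cre, so both genotypes carried the floxed alleles and only cKO mice carried a Cre recombinase, driven by the promoter of Itgax, the gene of CD11c. Each library pooled cells of several mice. The study pooled more mice for each cKO library than for each WT library, so pool size and genotype cannot be told apart. The pDC and cDC2 groups had 3 libraries per genotype and the cDC1 groups 2. Trim33 RNA, counted over the whole gene, remained in cKO libraries at 61.2% of its WT mean in pDCs, 46.3% in cDC1s and 41.3% in cDC2s. The study reports efficient inactivation of Trim33 in spleen DCs of cKO mice, measured by qPCR and Western blot. The libraries held 18.1 to 20.2 M reads by an estimate from the step of the lowest values, at which 1 TPM stands for 16.4 to 21.4 reads on a transcript of 2000 bases.

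TRIM33 is a nuclear ubiquitin ligase and transcriptional cofactor. The NR4A receptors bind DNA without a known natural ligand, so their activity follows their amount, and Nr4a1 and Nr4a2 can also pair with retinoid X receptors. Receptor signaling, calcium and MAP kinases induce them within minutes. DUSP proteins remove phosphates from activated MAP kinases: DUSP5 and DUSP6 act on ERK, DUSP5 in the nucleus and DUSP6 in the cytoplasm, while the nuclear enzymes DUSP1 and DUSP2 also act on p38 or JNK. Tristetraprolin binds AU-rich elements in cytokine messages such as Tnf and hastens their decay. In myeloid cells these genes are commonly read as a trace of recent stimulation.

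Several of these genes are classical targets of CREB and of serum response factor, which bind the cyclic AMP response element (CRE) and the CArG box. The sequences just before the RefSeq start sites (GRCm38.p6) are shown for the 3 NR4A genes, for 3 genes that fell in cKO cDC1s and, of these, for Ier3 as one without a match. They were available for 9 of the 10 genes, Ier2 being the other. In each, capitals mark the core CRE site TGACG on either strand or a CArG box. Stretches that an annotated exon of the same gene covers were left off. This trim was not applied to Nr4a3, where another transcript starts inside the window, at chr4:48045078. The 30 bases shown for it were chosen to hold core sites and lie after that earlier start. The Nr4a1 stretch lies in an intron of a longer annotated Nr4a1 transcript.
Nr4a1, chr15:101266596-101266845, plus strand: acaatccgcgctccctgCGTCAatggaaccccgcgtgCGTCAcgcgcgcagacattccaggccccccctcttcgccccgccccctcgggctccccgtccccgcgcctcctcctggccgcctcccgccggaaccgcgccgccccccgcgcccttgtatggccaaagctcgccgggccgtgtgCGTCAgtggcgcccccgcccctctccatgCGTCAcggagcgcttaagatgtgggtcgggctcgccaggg
Nr4a2, chr2:57124004-57124253, minus strand: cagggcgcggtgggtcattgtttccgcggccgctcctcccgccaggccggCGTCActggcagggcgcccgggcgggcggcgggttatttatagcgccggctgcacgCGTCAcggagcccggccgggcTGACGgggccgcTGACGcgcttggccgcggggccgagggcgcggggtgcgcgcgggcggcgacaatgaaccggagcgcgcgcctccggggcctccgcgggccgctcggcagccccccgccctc
Nr4a3, chr4:48045083-48045112, plus strand: gtcccatgtCGTCAcatTGACGtctcgcat
Dusp1, chr17:26508520-26508722, minus strand: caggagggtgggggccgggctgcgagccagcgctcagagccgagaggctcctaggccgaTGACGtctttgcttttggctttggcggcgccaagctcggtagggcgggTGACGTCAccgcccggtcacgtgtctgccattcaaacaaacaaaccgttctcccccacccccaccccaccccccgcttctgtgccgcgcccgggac
Dusp5, chr19:53528895-53529108, plus strand: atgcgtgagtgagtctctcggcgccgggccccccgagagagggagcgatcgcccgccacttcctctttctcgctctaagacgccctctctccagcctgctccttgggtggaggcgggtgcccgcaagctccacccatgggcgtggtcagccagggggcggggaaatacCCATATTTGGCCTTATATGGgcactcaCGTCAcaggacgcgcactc
Ier3, chr17:35821463-35821683, plus strand: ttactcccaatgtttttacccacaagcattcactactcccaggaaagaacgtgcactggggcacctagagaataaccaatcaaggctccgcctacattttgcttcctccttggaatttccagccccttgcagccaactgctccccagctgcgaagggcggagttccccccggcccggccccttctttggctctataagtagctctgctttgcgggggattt

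In the 250 bases before the start, each NR4A gene held 4 matches to the core site, at distances of 40 to 233 bases in Nr4a1, 111 to 200 in Nr4a2 and 147 to 231 in Nr4a3. The Nr4a3 distances are to the later start, and the sites shown above for Nr4a3 lie after its earlier start. Of 32851 promoter windows of the same length from 27025 genes, 17.8% held at least 1 match and 0.137% held at least 4. Dusp1 held 3 core sites, of which a pair formed the full palindrome TGACGTCA 143 bases before the start, a word found in 1.55% of windows. Dusp5 held 2 adjoining CArG boxes, starting 82 and 72 bases before the start, and 1 core site. A single CArG box stood 58 bases before the start of Zfp36, and 1.47% of windows held one. The EGR word GCGNGGGCG was found in 4 of 9 members (Nr4a1, Nr4a2, Dusp2 and Zfp36) and in 4.70% of windows. Neither the AP-1 word TGANTCA (6.75% of windows) nor the NR4A monomer site AAAGGTCA (1.34%) was found in any of the 9. Dusp6 and Ier3 held none of the motifs searched. These are matches of letters on either strand and do not show that a factor binds.

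In TRIM33-deficient cDCs nearly all these genes lay below their WT levels, while in pDCs most overlapped between genotypes. In cDC1s both cKO libraries lay below both WT libraries for 10 of 10 genes, whereas 24.1% of all genes did so. In cDC2s the same held for 9 of 10, against 19.2% of all genes, the exception being Dusp6. In pDCs 7 of 10 overlapped between genotypes, while Dusp2 and Dusp6 lay higher in every cKO library and Zfp36 lower, against 10.8% and 16.7% of all genes. A gene was called where its limma adjusted p was at most 0.01 and its log2 fold change at least 0.5 in size. In either direction the rule called 22.4% of all genes tested in cDC1s, 7.15% in cDC2s and 1.05% in pDCs. By that rule 5 of 10 genes fell in cDC1s (lower calls made up 6.56% of all genes), 1 of 10 fell in cDC2s (3.56%) and 0 of 10 were called in pDCs, where 3 of the 10 had an unadjusted p below 0.05. Here and below, counts at an unadjusted p below 0.05 lack the share of all genes beside them, and nothing is read from them. With the replicate number as a block, 2 of 10 (Dusp2 and Dusp6) were called higher in pDCs. That fit called 335 of 11299 genes in either direction, where the fit without the block called 119. The pairing it assumes was taken from the data. With an adjusted p of 0.05 as the limit and any fold, 10 of 10 were lower in cDC1s (11.1% of all genes), 6 of 10 lower in cDC2s (10.2%) and 2 of 10 higher in pDCs (2.94%). The median log2 fold change of the 10 was −2.26 in cDC1s, −1.23 in cDC2s and 0.09 in pDCs, where the median over all genes tested was 0.17, −0.03 and −0.05. In these bulk libraries, fewer cells that express a gene and less RNA per cell cannot be told apart.

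**Figure D1:**
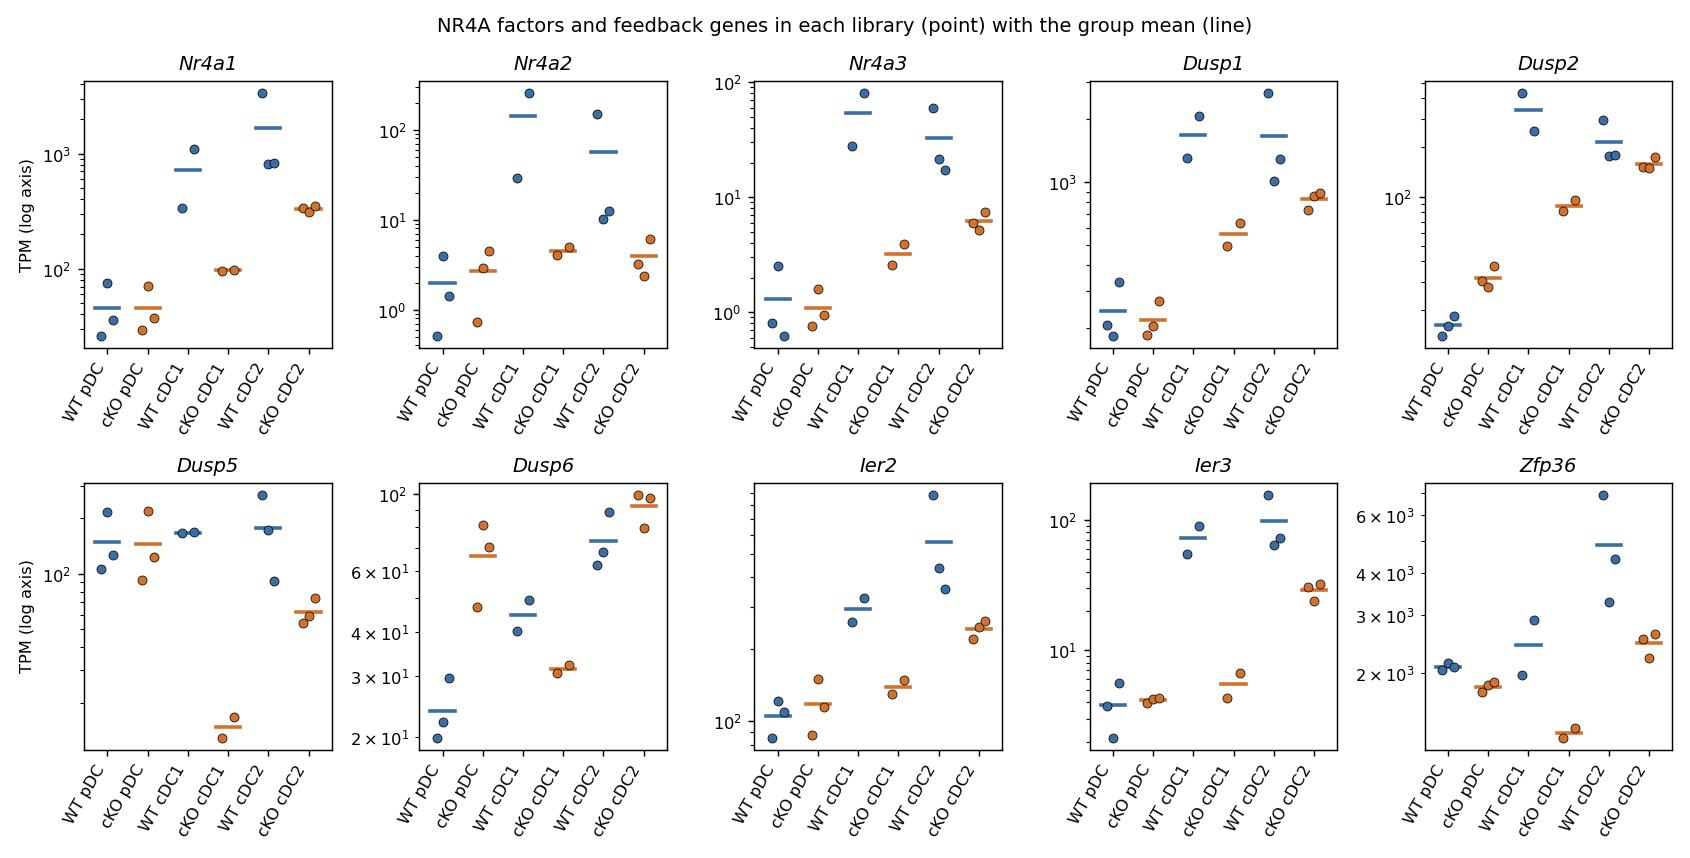
TPM of the 10 genes on log axes, with 1 panel for each gene, 1 point for each library and a line at each group mean, WT in blue and cKO in orange. In cDC1s the 2 cKO points lie below both WT points in every panel, while in pDCs the points of both genotypes overlap in 7 of 10 panels. The pDC and cDC tables were made separately, so levels are set side by side and not tested across them.

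Nr4a1 encodes NUR77, the most abundant of the 3 receptors. It stood at 336 and 1097 TPM in the WT cDC1 libraries and at 96.1 and 98.1 TPM in the cKO libraries. In WT cDC2s its level was 3357, 813 and 830.3 TPM, and in cKO cDC2s 339, 311 and 349.5 TPM. The genotypes did not overlap in either subset, and the WT libraries differed among themselves far more than the cKO libraries did. The fold changes were large but not called: −2.63 on the log2 scale in cDC1s (SE 0.65, limma adjusted p 0.0101) and −1.98 in cDC2s (SE 0.53, adjusted p 0.0280). In cDC1s the value missed the threshold narrowly and passed it in 4 of 18 other fits, with adjusted p values from 0.00117 to 0.0777. In pDCs Nr4a1 was 26.0, 74.9 and 35.6 TPM in WT and 29.2, 70.4 and 37.2 TPM in cKO libraries, so that libraries with the same number lay close together and the log2 fold change was 0.05 (SE 0.42).

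Nr4a2 encodes NURR1, best known from dopamine neurons. It had the widest spread of the 10 genes among WT cDC1s and among WT cDC2s. The WT cDC1 libraries held 29.0 and 255 TPM, the cKO libraries 4.03 and 4.94 TPM. WT cDC2 libraries held 149, 10.1 and 12.5 TPM, of which the first stood far above the others, and cKO libraries 3.21, 2.39 and 6.18 TPM. With SDs of 2.19 and 2.09 on the log2 scale among the WT libraries, neither difference was called (−4.00, SE 1.19, limma adjusted p 0.0233 in cDC1s, and −2.60, SE 0.98, adjusted p 0.0894 in cDC2s). The sizes rest on single libraries: the cDC1 value was −2.45 without WT cDC1 library 2 and the cDC2 value −1.39 without WT cDC2 library 1. In pDCs the 6 libraries ran from 0.51 to 4.48 TPM with no separation by genotype (0.35, SE 0.52).

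Nr4a3 encodes NOR1. It fell in cDC1s, from 27.8 and 80.2 TPM in WT to 2.59 and 3.88 TPM in cKO libraries, which is −3.53 on the log2 scale (SE 0.56, limma adjusted p 0.00105). This call was lost without cKO cDC1 library 1 (adjusted p 0.0139, over a range of 0.000273 to 0.0139 in 18 other fits). In WT cDC2s it was 59.4, 21.6 and 17.2 TPM against 5.98, 5.14 and 7.42 TPM in cKO cDC2s. These levels did not overlap, yet the fold change of −2.03 (SE 0.46, adjusted p 0.0130) was not called. It was called in 3 of 18 other fits. In pDCs Nr4a3 was scarce in all libraries, at 0.62 to 2.51 TPM (−0.07, SE 0.31).

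Rxra and Rxrb, which encode the partners of NR4A receptors that could be tested, were not called in any genotype comparison (1 of the 2 with an unadjusted p below 0.05 in pDCs and none in cDC1s or cDC2s by limma). Their median log2 fold changes were −0.17 in pDCs, 0.08 in cDC1s and 0.10 in cDC2s.

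Dusp1 encodes MKP-1, a phosphatase of p38, JNK and ERK. In cDC1s it fell from 1299.5 and 2073 TPM in WT to 494 and 636.5 TPM in cKO libraries (log2 fold change −1.55, SE 0.38, limma adjusted p 0.00969). The cKO libraries lay well below both WT libraries, but the adjusted p sat just inside the threshold and the call was kept in 4 of 18 other fits, with adjusted p values of 0.000830 to 0.0757. WT cDC2s held 2660.4, 1016 and 1283 TPM and cKO cDC2s 735, 858 and 886 TPM, a difference that was not called (−0.88, SE 0.31, adjusted p 0.0740). In pDCs the levels were 208, 184 and 332 TPM in WT and 187, 205 and 269.5 TPM in cKO libraries, which overlapped (−0.10, SE 0.22).

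Dusp2, which encodes the nuclear phosphatase PAC-1, differed in opposite directions among the subsets. It fell in cDC1s from 431 and 251 TPM in WT to 81.2 and 94.9 TPM in cKO libraries (−1.89, SE 0.28, limma adjusted p 0.000705), and this call was lost without cKO cDC1 library 1 (adjusted p 0.0103, over a range of 0.000273 to 0.0103 in 18 other fits). In cDC2s it was 295, 177 and 179 TPM in WT and 151, 149.96 and 175 TPM in cKO libraries, a small and uncalled difference (−0.41, SE 0.23, adjusted p 0.233). In pDCs it was 13.9, 16.2 and 18.6 TPM in WT and 30.3, 28.0 and 37.2 TPM in cKO libraries. Each cKO pDC library thus held more than any WT library. The fold change of 0.93 (SE 0.14) had a limma adjusted p of 0.0116, just outside the threshold, and was called with the replicate number as a block (adjusted p 0.000664, over a range of 0.000664 to 0.0387 in 13 other fits).

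Dusp5, which encodes the nuclear phosphatase of ERK, gave one of the clearest differences. In cDC1s it fell from 165 and 169 TPM in WT, which lay close together, to 12.9 and 16.8 TPM in cKO libraries, or 8.88% of the WT mean (−3.42, SE 0.38, limma adjusted p 0.000171). It was called in 18 of 18 other fits. In cDC2s it was 267, 172 and 91.5 TPM in WT and 53.9, 59.1 and 73.6 TPM in cKO libraries, which did not overlap but missed the threshold (−1.38, SE 0.31, adjusted p 0.0129). Without WT cDC2 library 3 the cDC2 value was called (−1.78, adjusted p 0.000542, over a range of 0.000542 to 0.0434 in 18 other fits). In pDCs, whose table was made separately, Dusp5 was 107, 215 and 126 TPM in WT and 91.9, 219 and 123 TPM in cKO libraries, a range that holds both WT cDC1 values (−0.07, SE 0.34). An annotated antisense RNA covers the start of Dusp5, and whether counting used strand was not stated, so reads of the 2 cannot be told apart there.

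Dusp6, which encodes the cytoplasmic phosphatase MKP-3 and is a common readout of ERK activity, stood apart from the other members. Its cDC1 levels were 40.2 and 49.3 TPM in WT and 30.6 and 32.2 TPM in cKO libraries (−0.49, SE 0.17, limma adjusted p 0.0467), which was not called as deposited but was called after quantile normalization or median-of-ratios scaling (−0.66 in each). In cDC2s it was 62.5, 68.2 and 88.4 TPM in WT and 99.3, 79.6 and 97.04 TPM in cKO libraries, and the genotypes overlapped (0.34, SE 0.14, adjusted p 0.125). In pDCs it was 19.9, 22.0 and 29.4 TPM in WT and 47.2, 81.6 and 70.4 TPM in cKO libraries. That difference, 1.43 on the log2 scale (SE 0.21), had a limma adjusted p of 0.0125. With the replicate block it was called (adjusted p 0.000664, over a range of 0.000664 to 0.0513 in 13 other fits). It was also called without cKO pDC library 1 (adjusted p 0.00811).

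Ier2 encodes a nuclear protein induced by growth factors. In cDC1s it was 260.2 and 326 TPM in WT and 130.2 and 148 TPM in cKO libraries (−1.06, SE 0.33, limma adjusted p 0.0282). Its cDC2 levels were 882, 436 and 357 TPM in WT and 221, 247 and 263 TPM in cKO libraries (−1.08, SE 0.27, adjusted p 0.0206). Neither difference was called, although no libraries overlapped and the sizes were alike in both subsets. The pDC libraries ran from 85.4 to 122 TPM in WT and from 88.0 to 149.8 TPM in cKO (0.14, SE 0.20).

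Ier3 encodes IEX-1, a stress-induced protein that affects ERK signaling and cell survival. It was the 1 member called in both cDC subsets. In cDC1s it went from 54.9 and 89.3 TPM in WT to 4.27 and 6.71 TPM in cKO libraries, or 7.62% of the WT mean (−3.48, SE 0.38, limma adjusted p 0.000173), and was called in 18 of 18 other fits. In cDC2s it went from 154, 64.0 and 72.6 TPM in WT to 30.4, 24.0 and 31.9 TPM in cKO libraries (−1.62, SE 0.31, adjusted p 0.00693). The cDC2 call was kept in 10 of 18 other fits (adjusted p 0.00674 to 0.0279) and was lost without any 1 of the 5 cKO cDC libraries. In pDCs Ier3 was scarce in both genotypes, at 3.75, 2.14 and 5.57 TPM in WT and 3.97, 4.24 and 4.27 TPM in cKO libraries (0.16, SE 0.25).

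Zfp36 was the most abundant member in all 6 groups. In cDC1s it was 1969 and 2889 TPM in WT and 1276 and 1366 TPM in cKO libraries (−0.85, SE 0.29, limma adjusted p 0.0405). In cDC2s it was 6909.6, 3287 and 4427 TPM in WT and 2533, 2226 and 2620.5 TPM in cKO libraries (−0.92, SE 0.24, adjusted p 0.0231). Both cKO groups lay near 50% of WT, at 54.4% and 50.5% of the mean, and neither difference was called. In pDCs the libraries were tight, at 2039, 2149 and 2085 TPM in WT and 1749, 1836 and 1876 TPM in cKO, and the separation was small (−0.20, SE 0.06, adjusted p 0.0928).

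**Figure D2:**
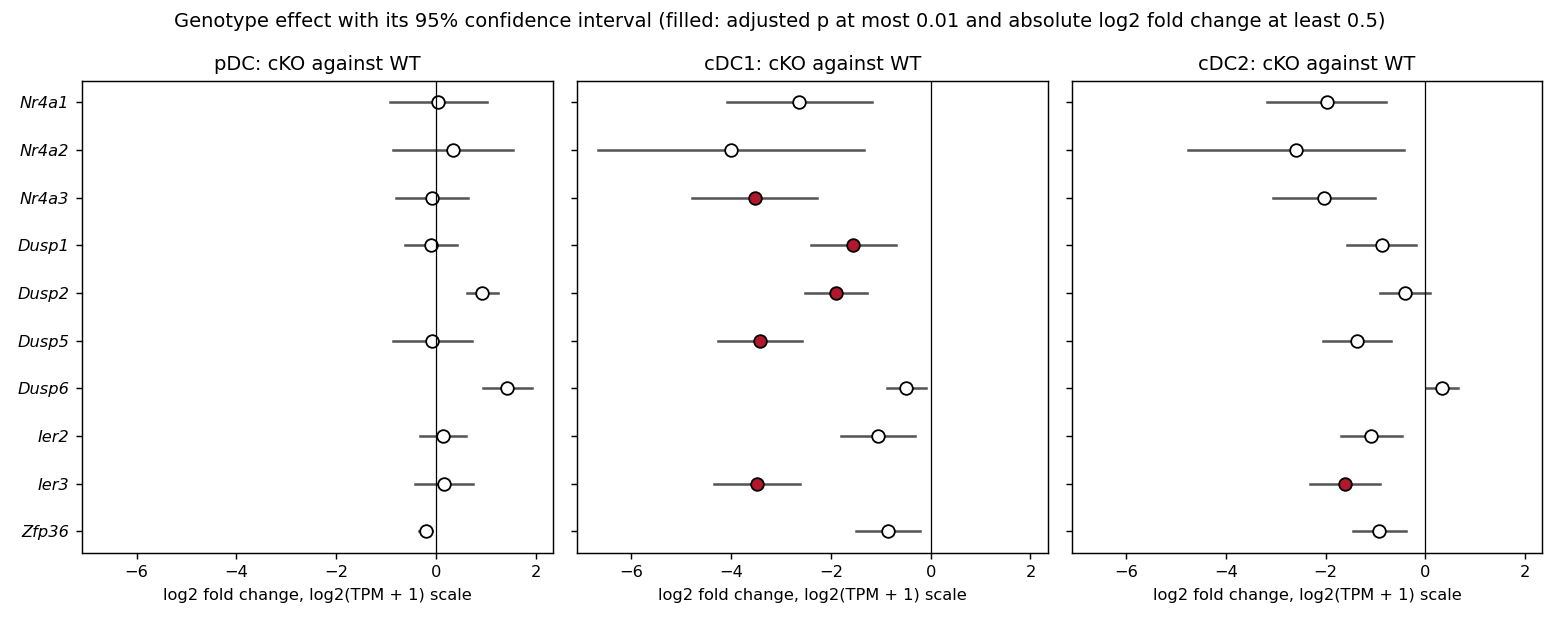
Log2 fold change of cKO against WT for each gene (points) with its 95% confidence interval (bars) from limma, in pDCs, cDC1s and cDC2s. Filled points passed both limits (adjusted p 0.01, log2 fold change 0.5 in size), which 5 genes did in cDC1s, Ier3 alone did in cDC2s and 0 did in pDCs.

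Whether the effect differed between cDC1s and cDC2s was tested as the cDC1 effect minus the cDC2 effect, from the same 10 libraries. None of the 10 passed the threshold in limma (2.56% of all genes did, in either direction), and 4 of 10 had an unadjusted p below 0.05 (share of all genes not counted). The same 4 had an adjusted p below 0.05 and were lower, as were 3.70% of all genes. These 4 were Dusp5 (−2.04, SE 0.49, limma adjusted p 0.0290), Dusp2 (−1.48, SE 0.36, adjusted p 0.0298), Ier3 (−1.86, SE 0.50, adjusted p 0.0410) and Dusp6 (−0.83, SE 0.23, adjusted p 0.0428). All 4 were lower in cKO cDC1s than the cDC2 effect would give. The NR4A genes had wide intervals: from −2.54 to 1.23 for Nr4a1, from −4.84 to 2.03 for Nr4a2 and from −3.11 to 0.11 for Nr4a3. Ier2 (0.02, interval −0.94 to 0.97) and Zfp36 (0.07, interval −0.77 to 0.91) had point values near 0, and the sign of both turned under median-of-ratios scaling (−0.21 and −0.16). These 4 differences rest on few libraries. Their sign was kept in each fit that left out 1 library, but the adjusted p stayed below 0.05 in 4 of 10 such fits for Dusp2, 5 for Dusp5, 2 for Dusp6 and 1 for Ier3. The limma adjusted p was highest without cKO cDC1 library 1, at 0.140 for Dusp2, 0.136 for Dusp5, 0.174 for Dusp6 and 0.186 for Ier3, and without WT cDC2 library 1 Dusp2, Dusp5 and Ier3 were called (−1.73, −2.40 and −2.25).

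Between WT cDC1s and WT cDC2s the log2 differences of the members ran from −1.11 to 1.63. Dusp6 was the 1 member called, lower in WT cDC1s (−0.69, SE 0.16, limma adjusted p 0.00516), where 31.7% of all genes were called in either direction and 20.8% lower. Under median-of-ratios scaling that call was lost (−0.49, adjusted p 0.0125), and it was kept in 13 of 18 other fits (adjusted p 0.00328 to 0.0566). Zfp36 (−0.96, adjusted p 0.0126) and Ier2 (−0.82, adjusted p 0.0459) had lower means in WT cDC1s without passing, so that 3 of 10 were below an adjusted p of 0.05, as were 32.3% of all genes on the lower side. For Nr4a1 (−1.11, SE 0.60), Nr4a2 (1.63, SE 1.09) and Nr4a3 (0.73, SE 0.51) the differences were within the spread of the WT libraries. The same libraries entered the comparisons above.

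In order of level per transcript length, Zfp36 came first in every group and Dusp1 was at rank 2 or 3. In WT cDC1s Nr4a1, Dusp2 and Ier2 followed at means of 716, 341 and 293 TPM, and the range of Dusp2 overlapped each of the others. WT cDC2s had Nr4a1 (1667 ± 1464 TPM, SD, n = 3) and Dusp1 (1653 ± 883 TPM, SD, n = 3) at levels that did not differ beyond their spread. In cKO cDC1s Nr4a1 and Dusp2 were likewise close, at 97.1 ± 1.41 and 88.0 ± 9.67 TPM (SD, n = 2 each). Nr4a3 and Nr4a2 were the lowest members in both pDC groups and in cKO cDC1s and cKO cDC2s. In WT pDCs Dusp5 was at rank 3 with 149 ± 57.8 TPM (SD, n = 3) and Nr4a1 at rank 5 with 45.5 ± 25.9 TPM (SD, n = 3), the ranges of Dusp5 and Dusp1 overlapping.

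Members were often high in the same libraries. WT cDC2 library 1 held the highest value of its group in 9 of 10 members, WT cDC1 library 2 in 9 of 10 and cKO cDC1 library 2 in 10 of 10. Within most groups the members had larger SDs than the median gene. Their median SD on the log2 scale was 0.70 in WT cDC2s against 0.17 for all genes, 0.48 against 0.11 in WT cDC1s, and 0.16 against 0.13 in cKO cDC2s. In cKO cDC1s the values were 0.16 and 0.07. Across the 10 cDC libraries 44 of 45 pairs of members had a positive Pearson r of log2(TPM + 1), with a median of 0.82. The highest was that of Dusp5 with Ier3 (0.97), and the 8 lowest all involved Dusp6. These libraries share groups, so part of each r is the genotype difference. Across the 6 pDC libraries the median r was 0.20 and 31 of 45 were positive, Nr4a1 with Dusp5 (0.98) and Dusp2 with Dusp6 (0.92) being the closest pairs.

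**Figure D3:**
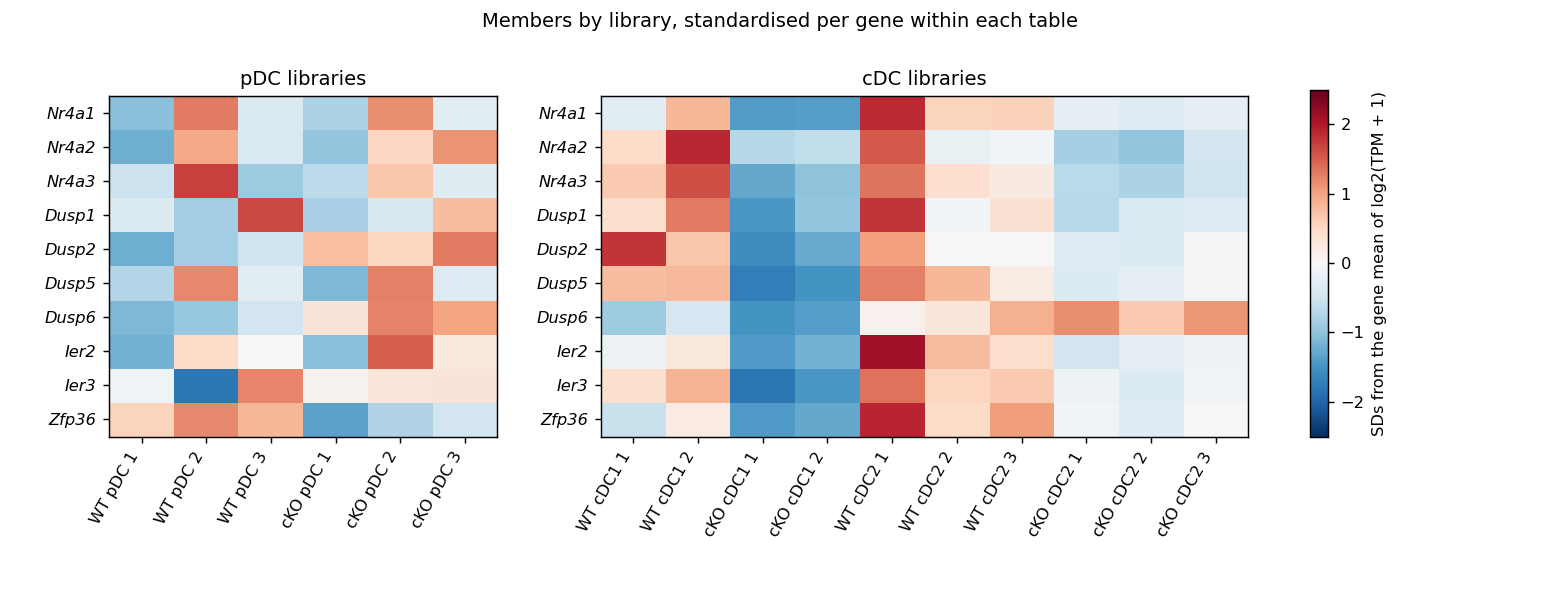
The 10 genes (rows) in each library (columns), as SDs from the mean of that gene over the 6 pDC or the 10 cDC libraries on the log2(TPM + 1) scale, red above and blue below the mean. Both cKO cDC1 libraries are blue in every row, WT cDC2 library 1 is the highest of the cDC libraries in 6 of 10 rows, and in pDCs the rows that separate by genotype are Dusp2, Dusp6 and Zfp36.

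By the same measure, the non-members with a mean of at least 10 TPM whose pattern over the 10 cDC libraries was most like the mean of the members were Egr2 (r = 0.993), Pnrc1 (0.988), Csrnp1 (0.983), Pmaip1 (0.978) and Map3k8 (0.977), out of 8189 genes. Over the 6 pDC libraries they were Sertad3 (0.997), Glul (0.994), Ngdn (0.988), Rtraf (0.975) and Doc2g (0.974), out of 8179. In pDCs the members had a median pairwise r of only 0.20. With so few libraries for so many genes, the pDC ranking is a description and no relation is read from it. None of the 5 was the same in both tables.

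Related genes were then counted to see how far the pattern extended. Of the other DUSP phosphatases of MAP kinases, 8 of 11 were tested. Over all genes, calls higher in cKO made up 15.8% in cDC1s, 3.59% in cDC2s and 0.814% in pDCs, and calls lower in pDCs 0.239%. In cDC1s Dusp7, a cytoplasmic phosphatase of ERK, rose (1.61, limma adjusted p 0.000567), from 5.35 and 4.29 TPM to 17.2 and 16.1 TPM, and Dusp16 fell (−0.63, adjusted p 0.00335). In cDC2s Dusp10 (−0.92, adjusted p 0.00962) and Dusp16 (−0.68, adjusted p 0.00201) fell, and in pDCs 0 of 8 were called (3 had an unadjusted p below 0.05). Their medians, −0.06, −0.19 and −0.09 in cDC1s, cDC2s and pDCs, were near those of all genes. Calls in the family thus went in both directions.

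Other brakes on ERK, the Sprouty, SPRED and RASA genes, had 7 of 10 genes tested. Spred1 rose in pDCs, from 5.35, 4.77 and 5.45 TPM to 11.96, 11.2 and 11.2 TPM (1.01, limma adjusted p 0.00258), the subset in which Dusp6 and Dusp2 lay above WT in every cKO library and were called with the replicate block. Spred2 rose (0.98, adjusted p 0.00804) and Rasa2 fell (−0.63, adjusted p 0.00374) in cDC1s. Rasa3 rose in cDC2s (1.32, adjusted p 0.000583). Among the kinases of the MAP kinase cascades, Map2k6, which activates p38, fell in cDC1s (−0.71, adjusted p 0.00619) and in cDC2s (−0.64, adjusted p 0.00841), and 0 of 17 were called in pDCs (2 with an unadjusted p below 0.05).

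The other RNA-decay factors are relatives of Zfp36 and the Regnase and Roquin genes. In cDC1s 4 of 7 tested were called lower, led by Zfp36l1 (−1.73, limma adjusted p 0.000742), which went from 496 and 619 TPM to 161 and 170.3 TPM. Zc3h12d (−1.56), Zc3h12c (−1.45) and Rc3h2 (−0.50) were the others. In cDC2s 3 of 7 were called lower: Zfp36l1 (−1.21, adjusted p 0.00410), Zc3h12d (−0.83) and Rc3h2 (−0.56). In pDCs 0 of 8 were called (2 with an unadjusted p below 0.05). Their median was −1.45 in cDC1s, −0.64 in cDC2s and −0.27 in pDCs. Of the cytokine messages that tristetraprolin is known to destabilize, 3 of 8 tested fell in cDC1s: Il12b (−4.18, adjusted p 1.58e-05), Il1b (−4.17, adjusted p 0.000889) and Tnf (−2.87, adjusted p 0.000128). Tnf also fell in cDC2s (−1.38, adjusted p 0.00443). Zfp36, which was not called, and these messages all had lower means in cKO cDC1s, where Tnf went from 107 and 90.2 TPM to 9.38 and 16.6 TPM.

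Transcription factors of the same early response gave a mixed picture. Of 13 AP-1 and EGR genes tested, 5 fell in cDC1s, led by Egr3 (−4.11, limma adjusted p 0.00567), Egr2 (−4.05, adjusted p 0.000922), Egr1 (−3.19, adjusted p 0.000518) and Junb (−1.41, adjusted p 0.00724). Egr1, which encodes a zinc-finger factor downstream of ERK, stood at 542 and 418 TPM in WT cDC1s and at 47.7 and 55.0 TPM in cKO cDC1s. Fos showed no such gap, with 1457 and 2565 TPM in WT and 1608 and 1711 TPM in cKO cDC1s. Atf3 was 160.4 and 625 TPM against 84.7 and 114 TPM. In cDC2s Egr1 fell (−2.34, adjusted p 0.00224) and Nab2, an EGR corepressor, rose (0.72, adjusted p 0.00334). Nab2 had fallen in cDC1s (−0.95, adjusted p 0.000889), and its difference between the subsets was called (−1.67, adjusted p 0.000913). It stood at 25.5 and 23.1 TPM in WT and 11.4 and 12.7 TPM in cKO cDC1s, and at 9.97, 11.4 and 10.2 TPM in WT and 18.9, 15.1 and 20.3 TPM in cKO cDC2s. In pDCs 0 of 13 were called (3 with an unadjusted p below 0.05).

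Of 21 other immediate-early genes tested, 7 fell in cDC1s and 1 rose. Rgs1 (−3.03, limma adjusted p 0.000138), Gadd45b (−3.00, adjusted p 0.00102) and Btg1 (−1.64, adjusted p 0.000320) fell most, and Myc rose (2.09, adjusted p 0.000241), from 23.0 and 16.3 TPM to 90.4 and 80.9 TPM. In cDC2s Plk3 (−1.31), Btg1 (−1.19) and Ier5 (−0.84) fell, and in pDCs 0 were called (3 with an unadjusted p below 0.05). The median of these genes was −1.06 in cDC1s, −0.84 in cDC2s and −0.10 in pDCs. Nfkbiz was the 1 of 8 inhibitors of NF-kB signaling called in cDC1s (−2.46, adjusted p 0.00638). In cDC2s and pDCs 0 of 8 were called (5 and 1 with an unadjusted p below 0.05). None of the genes of calcium and calcineurin feedback was called in any subset by limma (3 of 9, 2 of 9 and 1 of 10 with an unadjusted p below 0.05 in cDC1s, cDC2s and pDCs).

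**Figure D4:**
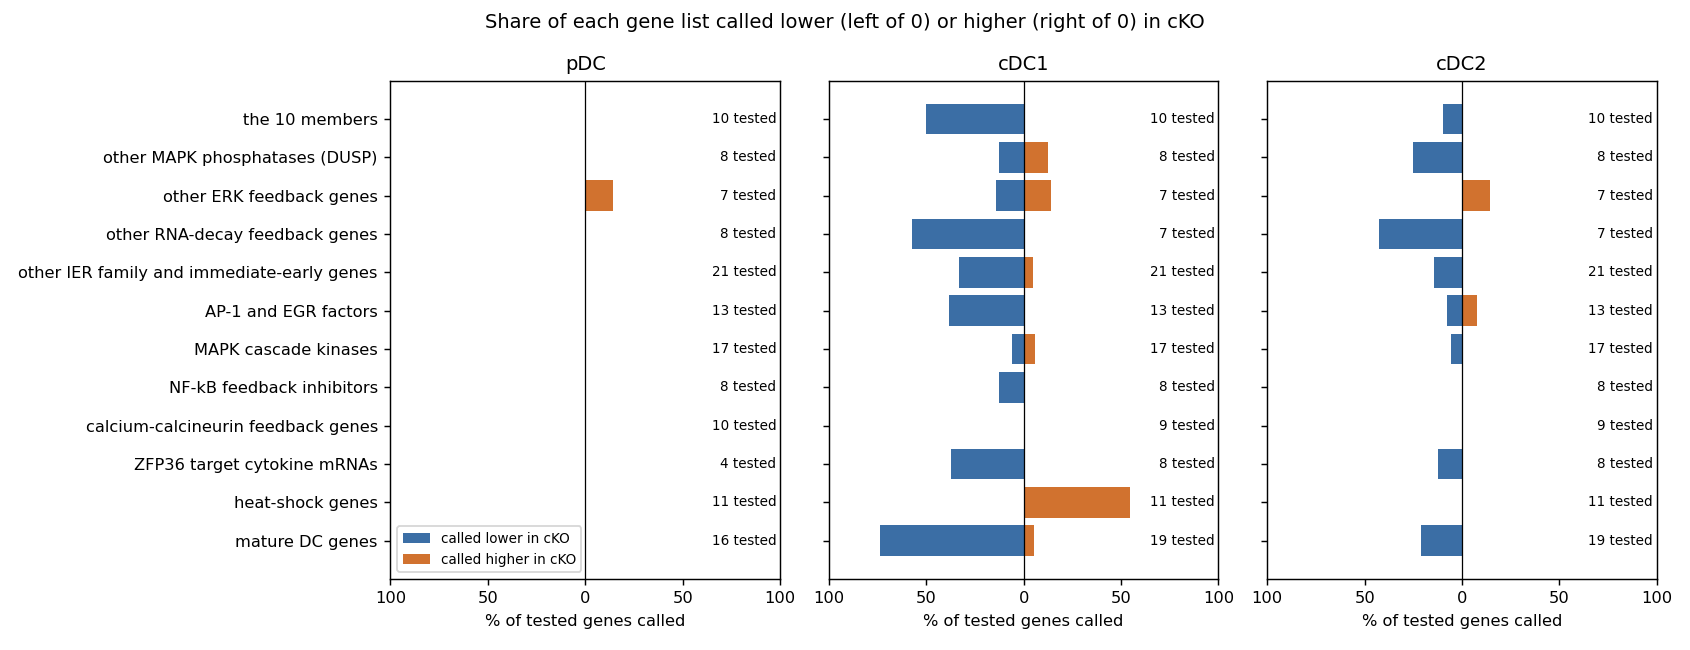
Percent of the tested genes called lower (bars to the left of 0) or higher (bars to the right of 0) in cKO, in pDCs, cDC1s and cDC2s, for the members and 11 other lists (cell type markers and retinoid X receptors are not drawn), with the number tested at the right. All lists drawn but the ERK feedback, NF-kB, calcium-calcineurin and heat-shock genes have bars to the left in both cDC subsets. Several lists have bars to the right in cDC1s, the longest being that of the heat-shock genes. Of the lists drawn, ERK feedback genes alone have a bar in pDCs.

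Other gene groups moved with these genes. In cDC1s 14 of 19 genes of mature DCs fell and 1 rose, among them Ccr7, the receptor that guides DCs to lymph nodes (−4.37, limma adjusted p 8.25e-05). Their summed level was 2797 to 3870 TPM in WT and 1076 to 1214 TPM in cKO cDC1s, 3140.4 to 3703 and 2268 to 2574 TPM in cDC2s, and 674 to 804 and 672 to 683 TPM in pDCs. Heat-shock genes went the other way: 6 of 11 rose in cDC1s, led by Hspa1b (5.05, adjusted p 0.00668) and Hspa1a (4.61, adjusted p 0.00804), and 0 of 11 were called in cDC2s and pDCs (6 and 7 with an unadjusted p below 0.05). Their summed level was 4362 to 4497 TPM in WT and 8827 to 9979 TPM in cKO cDC1s, 3872 to 6528 and 8559 to 10924.6 TPM in cDC2s, and 3174 to 5031 and 5165 to 8925 TPM in pDCs. Their part in the result was not tested.

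The sorted subsets carried their own markers. The 13 cDC1 markers summed to 7328 to 8085 TPM in WT and 6624 to 6750 TPM in cKO cDC1s, against 1091 to 1417 TPM in cDC2s. In cKO cDC1s 4 of the 13 were called lower, Itgae (−2.70), Cadm1 (−1.74), Clec9a (−1.33) and Ly75 (−0.99), and 0 higher. The 13 cDC2 markers summed to 2759 to 3059 TPM in WT and 2299.97 to 2505 TPM in cKO cDC2s, against 118 to 185 TPM in cDC1s, and 3 were called higher and 4 lower in cKO cDC2s. The 14 pDC markers summed to at least 24925 TPM in pDC libraries, where 1 was called higher and 1 lower. In cDC1s they summed to 403 to 454 TPM in WT and 694 to 717 TPM in cKO libraries, with 4 of 13 tested called higher and 2 lower. Of the markers of other cells, those of neutrophils summed to 6.25 to 18.3 TPM in WT and 22.1 to 35.0 TPM in cKO cDC1s, 33.5 to 55.2 and 55.3 to 90.4 TPM in cDC2s, and 13.3 to 30.03 and 28.5 to 93.9 TPM in pDCs. Among these markers Ly6g was at 0 in WT cDC1s and WT cDC2s, and Elane was at 0 in cKO cDC1s. By limma 0 of 6 tested were called in each subset (1, 1 and 2 with an unadjusted p below 0.05 in cDC1s, cDC2s and pDCs). Monocyte and macrophage markers summed to 552 to 769 and 510.5 to 536 TPM in cDC1s, and to 1448 to 2139 and 2819 to 3772 TPM in cDC2s. Of 13 tested, 3 were called higher and 1 lower in cKO cDC1s, and 4 higher and 0 lower in cKO cDC2s. In pDCs, where Dusp2, Dusp6 and Spred1 lay higher in cKO libraries, these markers summed to 5055 to 5702 TPM in WT and 5891 to 6087 TPM in cKO libraries. That sum includes Ly6c2, which is also on the list of pDC markers. There 0 of 12 were called by limma, and 7 of 12 had an unadjusted p below 0.05, all higher, among them Csf1r (0.80), C1qb (0.85), Hmox1 (0.67) and Ly6c2 (0.17). Of the 12, 10 had positive and 2 had negative fold changes, the latter being Lyz2 (−0.34) and Ccr2 (−0.16). T cell markers reached at most 5.63 TPM in cDCs. Among B cell markers 1 of 6 tested rose in pDCs, 1 of 4 rose and 1 fell in cDC1s, and 1 of 4 fell in cDC2s. Among NK cell markers 1 of 3 rose in cDC1s. Erythroid and platelet markers overlapped between genotypes in all 3 subsets and ran from 387 to 10739.8 TPM over the cDC libraries. WT cDC1 library 2 (387 TPM) and WT cDC2 library 1 (1277 TPM), where most members were highest, held the lowest of their groups. Their part in the result was not tested.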

How the data were processed

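Libraries were made from sorted spleen DCs (pDCs as SiglecH+, cDC1s as CD24+ and cDC2s as CD172a+ cells) after collagenase digestion, and sequenced as single-end reads of 50 bases on BGISEQ-500. The authors filtered reads with SOAPnuke, and their processing notes name HISAT2 2.0.4, Bowtie2 2.2.5 and RSEM 1.2.12 with the mm10 genome. TPM values were deposited by the authors for each library and gene, in 1 table for pDCs and 1 for cDCs, and FPKM values were deposited beside them. TPM is scaled per library, so a few abundant genes can shift all others. Each of the 32 columns belonged to 1 library. RefSeq symbols (GRCm38.p6) were found for 17079 of 17128 pDC genes and 17667 of 17721 cDC genes. Reads that match several paralogs are shared out by RSEM.

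The values are not counts, so limma 3.58.1 (R 4.3.3, eBayes with a trend) on log2(TPM + 1) replaced the DESeq2 model of the study, with its thresholds (adjusted p of at most 0.01, log2 fold change of at least 0.5). It was fitted on all genes whose mean reached 1 TPM, 11299 in the pDC fit of 6 libraries and 11411 in the cDC fit of 10 libraries with 4 group means. All p-values are two-sided, adjusted after Benjamini and Hochberg over all genes tested. Fold changes are cKO over WT unless said otherwise, and understate low genes. Nothing was tested across the 2 tables. Libraries of a group are separate pools. The p-values rest on a spread within groups that was estimated jointly over all groups of a fit. Those for cDC1s thus also depend on the cDC2 libraries. The spread of the members differed between these groups, with a median SD on the log2 scale of 0.70 in WT cDC2s and 0.16 in cKO cDC1s. Depth was estimated from the FPKM steps (Python 3.11.15, numpy 2.4.6, pandas 2.3.3), and 3 reads on 2000 bases equal 0.140 to 0.182 TPM, for counting error only. The fits were tested on simulated data. Plots were made with matplotlib 3.10.9.

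The members, the 21 other gene lists and the tests were chosen with earlier results of these data known. All 10 members are named in each comparison, with at most 4 called genes of each other list by size of change (Fos, Egr1 and Atf3 besides), the 5 genes most like the members in each table, and Trim33. A called gene of 1 list is not reported here. Genotype labels shared replicate numbers. In pDCs, WT and cKO libraries of the same number deviated together from their group means (r = 0.310, 0.392 and 0.206 across genes), so the numbers were taken to pair them, from the data and not the labels. The block gave 335 calls in pDCs where the fit without it gave 119. Alternatives were the pseudocount (0.1), no filter, other scalings, FPKM, eBayes without a trend, an adjusted p limit of 0.05, the block and leaving out each library.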

Additional observations from a re-analysis of the deposited data

Results flagged for a closer look

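The effect of genotype differed between cDC1s and cDC2s for 4 members when the difference itself was tested, at an adjusted p below 0.05 though not at 0.01 (limma). The cDC1 effect minus the cDC2 effect was −1.48 for Dusp2, −2.04 for Dusp5, −0.83 for Dusp6 and −1.86 for Ier3 on the log2 scale. None of the 4 stayed below 0.05 in every fit that left out 1 library, the highest limma adjusted p values being 0.140, 0.136, 0.174 and 0.186, each without cKO cDC1 library 1.

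Dusp2 lay above every WT library in cKO pDCs, at 1.96 times the WT mean, as did 10.8% of all genes. It lay below every WT library in cKO cDC1s (0.258 times, 24.1% of all genes) and cKO cDC2s (0.732 times, 19.2%). In cDC2s the gap was narrow, the highest cKO library holding 175.3 TPM and the lowest WT library 176.88 TPM. By limma Dusp2 was called in cDC1s but not in pDCs (adjusted p 0.0116) or cDC2s (adjusted p 0.233). Dusp6 lay above every WT library in cKO pDCs, at 2.79 times the WT mean, and below both in cKO cDC1s (0.701 times). It was called in neither by limma (adjusted p 0.0125 in pDCs and 0.0467 in cDC1s). The difference between pDCs and cDCs was not tested, because the tables were made separately.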

How the results depend on the processing

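In cDC1s and cDC2s the fold change of each of the 10 members had the same sign in 18 of 18 other fits. Members called numbered 0 in pDCs, 5 in cDC1s, 1 in cDC2s, 0 for the difference and 1 between the WT cDC subsets. With 0.05 as the limit and any fold they numbered 2, 10, 6, 4 and 3, and among all genes the calls numbered 514, 4522, 2274, 1286 and 5557. Leaving out 1 library gave 0 to 1, 2 to 9, 0 to 4, 0 to 3 and 0 to 2 members, and 12 to 97, 800 to 2888, 316 to 907, 77 to 282 and 2649 to 3575 genes. The 2 members in cDC1s came without cKO cDC1 library 1, the 9 without WT cDC2 library 1, and the 12 genes in pDCs without WT pDC library 3. A cDC1 group left with 1 library was assumed to vary like the other groups. With no filter 24 genes were called in pDCs, and 0 members in cDC2s and between the WT subsets. Without a trend 56 genes were called in pDCs. Median-of-ratios scaling gave 1 member in pDCs, 1 for the difference and 0 between the WT subsets, and moved the all-gene median in cDC1s from 0.17 to 0.02. Calls in cDC1s were 1806 higher and 749 lower as deposited, 1067 and 1067 under that scaling, and 1097 and 977 after quantile normalization. Between the WT subsets they were 1241 and 2371 as deposited and 1815 and 1719 under that scaling. The causes were not tested.

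With the replicate block 335 genes and 2 members were called in pDCs, where 119 and 0 were called without it. In cDCs the numbers did not pair the libraries (r = −0.249, 0.253 and −0.165 in cDC2s, −0.233 in cDC1s). There the block gave 145 genes for the difference and 0 members in cDC2s and between the WT subsets, where Dusp5 turned to −0.093. A crossed cDC1 pairing, chosen after seeing the data, gave 0 members in both.

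Signs turned in other values, none of them called. In pDCs without 1 library, Nr4a1 ran from −0.31 to 0.47, Nr4a2 from −0.054 to 0.82, Nr4a3 from −0.29 to 0.046, Dusp1 from −0.27 to 0.15, Dusp5 from −0.42 to 0.22, Ier2 from −0.051 to 0.33 and Ier3 from −0.12 to 0.42. For the difference, median-of-ratios scaling gave −0.21 for Ier2 and −0.16 for Zfp36, FPKM gave −0.086 and −0.039, and quantile normalization gave −0.14 for Ier2. Without 1 library these ran from −0.37 to 0.28 and from −0.22 to 0.35, Nr4a1 from −1.51 to 0.20 and Nr4a2 from −2.96 to 0.14. Between the WT subsets Nr4a3 ran from −0.017 to 1.48, Dusp1 from −0.22 to 0.52, Dusp5 from −0.36 to 0.41 and Ier3 from −0.70 to 0.038.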
